A study of Mus musculus with 30 samples.

Results

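The aryl hydrocarbon receptor (AHR) and 6 genes of its transcriptional programme were followed in cultured mouse tumor cells given interferons or a STING agonist. The 7 genes, out of 49315 counted, were taken by name. They are the receptor Ahr, its repressor Ahrr, the feedback enzyme Tiparp, the cytochrome P450 genes Cyp1a1 and Cyp1b1, the quinone reductase Nqo1 and the aldehyde dehydrogenase Aldh3a1. A minimum of 10 reads combined over the 24 libraries left 21138 genes, and all 7 were among them, with Cyp1a1 the lowest at 173 reads in total. The list was drawn up with the knowledge that Cyp1b1, Nqo1 and Aldh3a1 were higher with STING agonist in 6694c2 cells, and the members were selected on that comparison together with their names. For it the values are given as a description and no test is reported for these genes.

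Bulk RNA sequencing covered B16F10 cells, a melanoma line, and 6694c2 cells, a pancreatic ductal adenocarcinoma (PDAC) line that came from a female mouse with alleles that include Pdx-cre, 1 floxed p53 allele and a floxed YFP reporter. Both are labelled C57BL/6. Each line was cultured for 24 h with vehicle, with IFNγ at 100 ng/mL, with IFNβ at 1000 U/mL or with STING agonist at 225 μg/mL, with 3 libraries in each of the 8 groups. The labels do not say whether the 3 libraries of a group came from separate cultures, so the p-values measure only the spread between these libraries, which may be technical.

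AHR is a transcription factor that is held in the cytoplasm by HSP90 and partner proteins until a small molecule binds it. Many such ligands exist, among them dioxins, plant indoles and tryptophan metabolites such as kynurenine. The bound receptor enters the nucleus, pairs with ARNT and binds a short DNA element, the xenobiotic response element (XRE), near genes of detoxification. Cyp1a1, Cyp1b1, Tiparp and Ahrr are classical direct targets, and Ahrr and Tiparp dampen the receptor in return. Nqo1 and Aldh3a1 belong to the same gene battery, and Nqo1 is also a classical target of NRF2, the regulator of the oxidative stress response.

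Libraries held from 15543131 up to 32266795 reads on genes. With STING agonist, the 6694c2 libraries were deeper (26943706 to 30249434 reads) than with vehicle (17450954 to 19224703), and the B16F10 libraries ranged lower (15543131 to 21419340 against 19688783 to 24019834). Levels are given as CPM, the reads of a gene scaled to a common library size with TMM factors of each line, and RPKM, CPM per kilobase of exon, is used where genes are compared with each other. The 7 melanocyte markers (such as Tyr, Dct and Pmel) summed to between 15830 and 19940 CPM in B16F10 libraries and to between 17.1 and 120.0 in 6694c2 libraries. The 7 epithelial markers (such as Krt8 and Krt19) summed to between 11860 and 14130 CPM in 6694c2 libraries and to between 14.5 and 145.3 in B16F10 libraries. Each sum was thus higher in the line of its own origin. In untreated cells 6 of the 7 epithelial markers were called higher in 6694c2 than in B16F10, beside 28.7% of all genes. Cldn4 was not (log2 difference 0.50, adjusted p = 0.634). The macrophage and T-cell markers summed to at most 17.9 and 5.99 CPM, with Itgam, Cd3e or Cd3d at 0 in several groups, the fibroblast markers to at most 6.48, and the B-cell markers to between 13.1 and 42.5. Other macrophage and T-cell markers had reads. With vehicle, Cd68 and Lyz2 averaged 7.13 and 5.88 CPM in B16F10 cells, and Trac 4.86 CPM in 6694c2 cells. The B-cell sum was 31.8 to 42.5 CPM in B16F10 libraries with IFNγ, where Ahr, Ahrr and Tiparp rose, against 13.1 to 27.6 with vehicle. Of its 6 genes, 3 were called higher, beside 12% of all genes. With IFNβ, where Ahr, Ahrr and Tiparp also rose in B16F10 cells, the B-cell sum was 19.3 to 34.2 CPM. There 2 of the 6 B-cell genes were called higher, beside 12.7% of all genes. The part of such transcripts in the Ahr, Ahrr and Tiparp results was not tested. Transcripts typical of the other line were also present at a low share of their level there. This share was highest in B16F10 libraries with STING agonist, at 0.947% to 1.18%, against 0.185% to 0.254% with vehicle. In 6694c2 libraries it was 0.552% to 0.64% with vehicle and 0.211% to 0.316% with STING agonist. As a check of the treatments, 10 interferon-response genes (such as Isg15 and Gbp2) were counted. IFNβ raised all 10 in both lines and IFNγ raised 9 in each. Of all genes, IFNβ raised 12.7% in B16F10 and 10.4% in 6694c2 cells, and IFNγ 12% and 7.89%. With STING agonist, 9 of the 10 were higher in B16F10 cells, beside 1.93% of all genes. In 6694c2 cells 3 of the 10 were higher and 1 lower, beside 0.203% of all genes higher and 0.156% lower.

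The promoters of Cyp1b1 and Nqo1 are shown because these genes parted under interferon, and those of Cyp1a1 and Ahrr because they belong to classical AHR targets with few reads here. Each sequence is the 250 bases before the RefSeq start, read 5′ to 3′ on the strand of the gene (RefSeq, GRCm38.p6). Capitals mark the XRE core GCGTG, or CACGC where it lies on the other strand. The windows are chr17:79715062-79715311 (minus strand), chr8:107403206-107403455 (minus strand), chr9:57697363-57697612 (plus strand) and chr13:74292332-74292581 (minus strand).
Cyp1b1: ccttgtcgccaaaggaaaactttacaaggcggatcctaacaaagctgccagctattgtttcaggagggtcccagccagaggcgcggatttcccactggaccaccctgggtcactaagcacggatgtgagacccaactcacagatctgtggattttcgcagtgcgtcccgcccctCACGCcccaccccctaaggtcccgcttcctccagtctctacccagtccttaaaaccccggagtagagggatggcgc
Nqo1: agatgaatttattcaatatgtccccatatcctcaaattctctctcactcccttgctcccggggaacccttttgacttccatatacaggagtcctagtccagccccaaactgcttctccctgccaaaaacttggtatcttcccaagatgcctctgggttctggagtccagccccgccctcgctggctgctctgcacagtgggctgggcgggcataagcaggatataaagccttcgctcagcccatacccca
Cyp1a1: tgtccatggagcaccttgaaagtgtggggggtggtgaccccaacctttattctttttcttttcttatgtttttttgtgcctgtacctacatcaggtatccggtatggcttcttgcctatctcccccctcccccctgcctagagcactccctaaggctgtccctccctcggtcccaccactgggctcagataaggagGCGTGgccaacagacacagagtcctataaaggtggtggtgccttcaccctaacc
Ahrr: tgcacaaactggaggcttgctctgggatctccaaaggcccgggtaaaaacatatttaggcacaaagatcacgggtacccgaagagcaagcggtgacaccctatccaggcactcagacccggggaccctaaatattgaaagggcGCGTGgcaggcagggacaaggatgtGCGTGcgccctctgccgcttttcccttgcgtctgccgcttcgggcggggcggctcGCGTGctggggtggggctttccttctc

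The Ahrr window held 3 XRE cores, 27, 82 and 107 bases upstream of the start at their first base. The Cyp1a1 window held 1, which began 54 bases upstream, and the Cyp1b1 window held 1 on the other strand, 76 bases upstream. The Tiparp window also held 1, on the other strand, 170 bases upstream, and no match was found in the Nqo1 window. Among 32851 RefSeq windows of the same length, 28.2% held at least 1 match on either strand. The core of the antioxidant response element bound by NRF2 (TGACNNNGC, on either strand) was in none of the 5 windows and in 10.2% of all. A match is only a match of letters, and the Ahr and Aldh3a1 promoters were not examined. Windows of this length leave out distal enhancers.

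The receptor gene was raised by interferons in B16F10 cells. Ahr lies on chromosome 12 from 35497974 to 35535038 (GRCm38, minus strand). In B16F10 cells it stood at 7.03, 7.04 and 7.07 CPM with vehicle and at 28.4, 27.7 and 27.03 with IFNγ. IFNβ gave 11.3, 10.9 and 10.5 CPM. The libraries of both interferon groups lay above every vehicle library. The log2 fold change was 1.98 (SE 0.111, adjusted p = 4.12e-51) for IFNγ, a 3.93-fold rise, and 0.63 (SE 0.119, adjusted p = 2.61e-06) for IFNβ. With STING agonist, the values of 7.31, 7.76 and 8.11 CPM were also above vehicle, but the log2 fold change of 0.14 did not pass (adjusted p = 0.754). In these bulk libraries, fewer cells with a transcript and less of it per cell cannot be told apart.

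In 6694c2 cells Ahr started from a higher level. Vehicle libraries held 37.05, 28.2 and 28.7 CPM, and the first of these stood apart from the others. IFNβ gave 39.8, 37.5 and 35.3 CPM, which overlapped the vehicle values, and Ahr was called higher at a log2 fold change of 0.26 (SE 0.0918, adjusted p = 0.0403). That call was lost in 11 of 16 alternatives, among them the fits without vehicle replicate 2 or 3 or without IFNβ replicate 1 or 2, with adjusted p-values of 0.0504 to 0.251. IFNγ gave 28.8, 33.7 and 33.2 CPM, a log2 fold change of 0.03 that did not pass (adjusted p = 0.948). STING agonist gave 30.6, 28.2 and 26.8 CPM, within or below the vehicle range. The effect of IFNγ on Ahr was smaller in 6694c2 than in B16F10 cells by 1.97 on the log2 scale, and that difference passed the test (SE 0.136, adjusted p = 2.64e-14, fit of all 24 libraries). For IFNβ the difference of -0.39 did not pass (SE 0.141, adjusted p = 0.0612), although it did in 6 of 19 alternatives. Over the 8 groups, Ahr ranged from 37.5 ± 2.24 CPM (SD, n = 3) in 6694c2 cells with IFNβ down to 7.04 ± 0.0199 in B16F10 cells with vehicle. The libraries of the 3 other 6694c2 groups overlapped with their neighbours of that line in this order. Those of B16F10 cells with IFNγ overlapped with those of 6694c2 cells with STING agonist. Each line was scaled by its own TMM factors, so the order and overlap across the lines are not on a common scale.

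**Figure D1:**
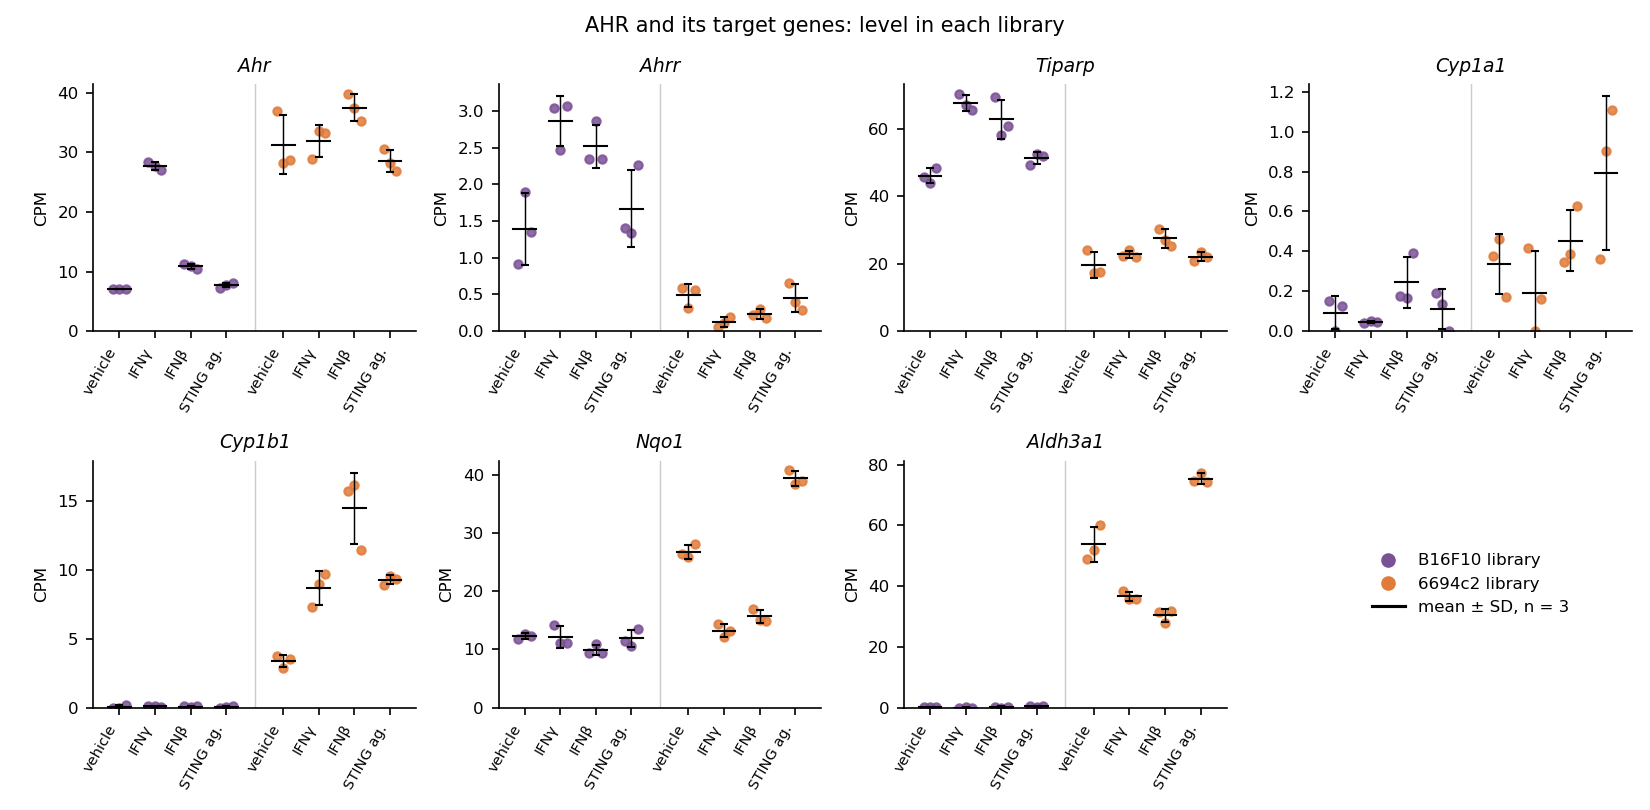
Level of each of the 7 genes in CPM (linear axis, a separate scale for each gene) in all 24 libraries, B16F10 on the left and 6694c2 on the right of each panel. Points are libraries and bars give the mean ± SD of 3. Ahr in B16F10 cells goes from 7.04 CPM with vehicle to 27.7 with IFNγ, whereas Nqo1 and Aldh3a1 in 6694c2 cells lie below vehicle with both interferons and above it with STING agonist.

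The repressor gene Ahrr moved in opposite directions in the lines under IFNγ. Ahrr (chromosome 13, 74211118 to 74292331, minus strand) encodes a relative of AHR that competes for ARNT. In B16F10 cells it was at 0.917, 1.90 and 1.35 CPM with vehicle, 3.04, 2.46 and 3.07 with IFNγ and 2.35, 2.86 and 2.35 with IFNβ. No interferon library overlapped with vehicle. It rose by a log2 fold change of 1.03 with IFNγ (SE 0.255, adjusted p = 0.000544) and of 0.84 with IFNβ (SE 0.257, adjusted p = 0.00667). The latter call was lost without vehicle replicate 1 (adjusted p = 0.0908) or IFNβ replicate 2 (adjusted p = 0.0534). STING agonist gave 1.41, 1.33 and 2.27 CPM, which overlapped with vehicle (log2 fold change 0.24, adjusted p = 0.786).

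In 6694c2 cells Ahrr was near the limit of detection. It had 11, 6 and 10 reads with vehicle (0.593, 0.309 and 0.565 CPM) and 1, 2 and 6 reads with IFNγ (0.0521, 0.114 and 0.191 CPM). Ahrr was called lower with IFNγ (log2 fold change -1.88, SE 0.655, adjusted p = 0.0483). From the summed reads alone, the level with IFNγ was 0.272 times that with vehicle, with a 95% exact interval of 0.113 to 0.596 that covers counting error only. The call was lost in 8 of 16 alternatives, among them the fits without vehicle replicate 1 or 3 and without any 1 of the IFNγ libraries, with adjusted p-values up to 0.17. IFNβ left 7, 7 and 5 reads (0.220, 0.301 and 0.174 CPM), all below vehicle but not called (log2 fold change -1.07, adjusted p = 0.237). STING agonist gave 0.655, 0.401 and 0.294 CPM, across the vehicle range. The change with IFNγ was lower in 6694c2 than in B16F10 cells by 2.9 on the log2 scale (SE 0.625, adjusted p = 0.00117), and that with IFNβ by 1.95 (SE 0.56, adjusted p = 0.0155). The IFNβ difference was lost without 6694c2 vehicle replicate 1 (adjusted p = 0.0644) or 3 (adjusted p = 0.0519).

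Tiparp, the other feedback gene, was higher with IFNβ in both lines. It encodes an ADP-ribosyltransferase that modifies AHR and limits its activity, and lies on chromosome 3 from 65528410 to 65555518 (plus strand). In B16F10 cells its level was 45.6, 43.9 and 48.3 CPM with vehicle, 70.3, 67.1 and 65.6 with IFNγ and 69.2, 58.2 and 60.6 with IFNβ. The log2 fold changes were 0.56 (SE 0.0692, adjusted p = 2.29e-13) and 0.45 (SE 0.0692, adjusted p = 6.33e-09). STING agonist gave 49.3, 52.6 and 51.8 CPM, all above vehicle, but the log2 fold change of 0.16 did not pass the adjusted test (unadjusted p = 0.0267, adjusted p = 0.29, edgeR). In 6694c2 cells, vehicle libraries held 24.1, 17.1 and 17.5 CPM, with the first again apart from the others. IFNβ gave 30.4, 26.9 and 25.1 CPM, a log2 fold change of 0.49 (SE 0.103, adjusted p = 0.000365), without overlap. IFNγ gave 22.2, 23.9 and 21.96 CPM, a log2 fold change of 0.21 that did not pass (adjusted p = 0.224), although without vehicle replicate 1 it did (log2 fold change 0.39, adjusted p = 0.00506). STING agonist libraries lay between 20.7 and 23.4 CPM, within the vehicle range. The IFNβ effects of the lines differed by 0.02 on the log2 scale (SE 0.13, adjusted p = 1.0), and those of IFNγ by -0.37 (SE 0.132, adjusted p = 0.0784). An antisense gene, 4931440P22Rik, shares 223 bp of exon with Tiparp and had 434 reads against 21683 for Tiparp. Ahr shares 127 bp with the antisense gene Gm48236, which was not analysed here. Whether counting used strand is not given in the sources used here.

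Among the xenobiotic-metabolizing P450 genes, Cyp1b1 was measured well only in 6694c2 cells, where every treatment group lay above vehicle. Cyp1b1 oxidizes estrogens and polycyclic hydrocarbons, and was counted on chromosome 17 from 79706953 to 79715041 (minus strand), a span shorter than that in GENCODE M21 (79701537 to 79715061). Vehicle libraries of 6694c2 cells held 3.72, 2.88 and 3.50 CPM, from 69, 56 and 62 reads. IFNβ gave 15.7, 16.1 and 11.5 CPM and IFNγ 7.29, 9.002 and 9.68 CPM. The log2 fold change was 2.10 with IFNβ (SE 0.149, adjusted p = 2.68e-15), a 4.29-fold rise, and 1.37 with IFNγ (SE 0.157, adjusted p = 3.54e-09). STING agonist gave 8.92, 9.56 and 9.37 CPM, which are the values that helped to choose the gene. Their mean was 2.76 times that of vehicle, a log2 difference of 1.46, which lay between 1.36 and 1.54 over 16 alternatives. In the order of the means, STING agonist and IFNγ were neighbours whose libraries overlapped, and both were separate from IFNβ above and vehicle below. In B16F10 cells Cyp1b1 had 0 to 5 reads per library, with 0, 0 and 5 in the vehicle libraries, and no fold change is given because both sides of each comparison averaged at most 3 reads per library.

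Cyp1a1, the most widely used reporter of AHR activation, had at most 34 reads in any library. It lies on chromosome 9 from 57687928 to 57703824 (plus strand). In 6694c2 cells it had 7, 9 and 3 reads with vehicle, 8, 0 and 5 with IFNγ, 11, 9 and 18 with IFNβ and 10, 27 and 34 with STING agonist. In CPM, the STING agonist libraries were at 0.364, 0.903 and 1.11 and the vehicle libraries at 0.378, 0.463 and 0.169, so 1 STING agonist library lay within the vehicle range. The fitted log2 difference was 1.22. Neither IFNβ (log2 fold change 0.41, adjusted p = 0.735) nor IFNγ (log2 fold change -0.81, adjusted p = 0.557) gave a call in 6694c2 cells. B16F10 libraries held 0 to 9 reads, the 4, 4 and 9 reads with IFNβ lying above the 3, 0 and 3 with vehicle (adjusted p = 0.398). No interferon effect on Cyp1a1 was detectable at this depth.

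Nqo1 and Aldh3a1 fell with both interferons in 6694c2 cells and were higher with STING agonist. Nqo1 (chromosome 8, 107388225 to 107403206, minus strand) encodes NAD(P)H quinone dehydrogenase, which reduces quinones without forming radicals. Its vehicle libraries in 6694c2 cells held 26.4, 25.9 and 28.2 CPM. With IFNγ they held 14.4, 12.2 and 13.2 CPM, and with IFNβ 16.9, 15.2 and 15.0, all below vehicle. The fall was 1.01 on the log2 scale with IFNγ (SE 0.0931, adjusted p = 8.93e-12) and 0.77 with IFNβ (SE 0.0898, adjusted p = 5.26e-09). STING agonist gave 40.9, 38.5 and 39.01 CPM, all above vehicle, and a mean 1.47 times higher (log2 difference 0.56, 0.53 to 0.60 over 16 alternatives), which is a value that chose the gene.

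Aldh3a1 (chromosome 11, 61207537 to 61218421, plus strand) encodes an enzyme that oxidizes aromatic and fatty aldehydes. In 6694c2 cells it was at 49.0, 52.0 and 60.1 CPM with vehicle. IFNγ gave 38.4, 35.7 and 35.7 CPM and IFNβ 31.5, 27.9 and 31.7, again all below vehicle. The fall was 0.55 with IFNγ (SE 0.0803, adjusted p = 8.1e-07) and 0.82 with IFNβ (SE 0.0801, adjusted p = 4.92e-11), on the log2 scale. STING agonist gave 74.7, 77.3 and 74.2 CPM, above every vehicle library, with a mean 1.40 times higher (log2 difference 0.49, 0.43 to 0.58 over 16 alternatives), also a value that chose the gene. In the order of levels, the STING agonist, vehicle and interferon groups of 6694c2 cells were separate from each other for both genes. IFNγ was the lowest of them for Nqo1 and IFNβ for Aldh3a1. The 4 calls of Nqo1 and Aldh3a1 in 6694c2 cells and the 2 of Cyp1b1 held under all 16 alternatives each.

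In B16F10 cells Nqo1 was called with IFNβ alone of the 3 treatments. It was at 11.8, 12.7 and 12.3 CPM with vehicle, and at 9.45, 10.98 and 9.35 with IFNβ, where it was called lower (log2 fold change -0.31, SE 0.116, adjusted p = 0.0361). This call was lost in 6 of 16 alternatives, among them the fits without vehicle replicate 2 or 3 or IFNβ replicate 1 or 3, with adjusted p-values up to 0.117. Values with IFNγ (14.2, 11.1 and 11.1 CPM) and STING agonist (11.5, 10.7 and 13.6 CPM) overlapped with vehicle (adjusted p = 1.0 and 0.94). The interferon effects on Nqo1 were lower in 6694c2 than in B16F10 cells, by 1.02 on the log2 scale for IFNγ (SE 0.145, adjusted p = 1.77e-06) and by 0.49 for IFNβ (SE 0.144, adjusted p = 0.0188). The IFNβ difference was lost without B16F10 IFNβ replicate 2 (adjusted p = 0.0823).

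Aldh3a1 was almost absent from B16F10 libraries, with 1, 1 and 2 reads with vehicle, 0, 1 and 0 with IFNγ, 8, 0 and 5 with IFNβ and 8, 7 and 7 with STING agonist. The STING agonist libraries lay above vehicle (log2 fold change 2.65, SE 0.997) but were not called (adjusted p = 0.149). From the summed reads the ratio was 6.66, with a 95% exact interval of 2.26 to 26.6 for counting error. These 3 libraries held 0.327 to 0.515 CPM by total reads. The share of 6694c2 transcripts in the same libraries, multiplied by the mean level of Aldh3a1 in 6694c2 cells, gives 0.467 to 0.584 CPM, which is above the measured value in each of the 3. For the vehicle libraries, the same product was 0.0911 to 0.125 CPM, against 0.0431 to 0.0833 measured. The part of such transcripts in the Aldh3a1 values was not tested beyond this comparison. In the fit of all 24 libraries together, Aldh3a1 was called in this comparison (adjusted p = 0.0208). The IFNβ effect on Aldh3a1 was lower in 6694c2 than in B16F10 cells by 2.38 on the log2 scale (SE 0.77, adjusted p = 0.0346). That call rested on the 8, 0 and 5 reads in B16F10 cells and was lost without any 1 of the vehicle libraries, IFNβ replicate 1 or IFNβ replicate 3 of that line, with adjusted p-values of 0.0536 to 0.359. These B16F10 IFNβ libraries held 0.357, 0 and 0.219 CPM by total reads. The share of 6694c2 transcripts alone would give 0.3, 0.219 and 0.117 CPM there. The part of such transcripts in this call was not tested.

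**Figure D2:**
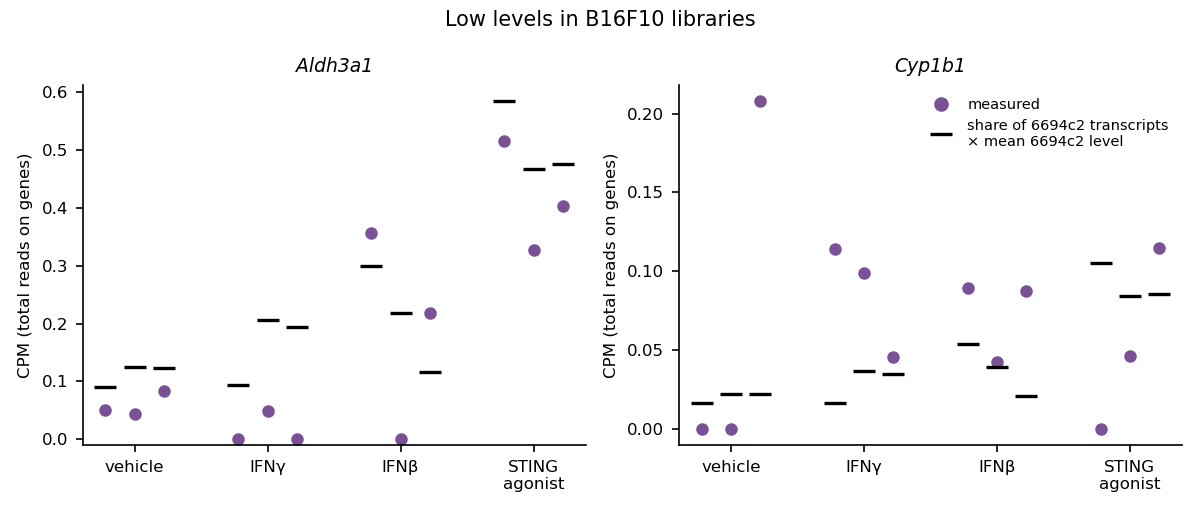
Aldh3a1 and Cyp1b1 in the 12 B16F10 libraries (vertical axis, CPM by total reads on genes, linear; horizontal axis, treatment). Points are measured values and dashes the level that the library's share of 6694c2 transcripts alone would give, and with STING agonist the measured Aldh3a1 values of 0.327 to 0.515 CPM lie under dashes at 0.467 to 0.584.

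Counted over the members, the interferons gave calls in both lines and in both directions. In B16F10 cells, IFNγ raised 3 of the 7 genes (Ahr, Ahrr and Tiparp) and lowered none, in a comparison where 22.8% of all 21138 genes were called. IFNβ raised the same 3 and lowered Nqo1, where 24% of all genes were called. With STING agonist none of the 7 was called by edgeR in B16F10 cells, where 3.46% of all genes were called. At an unadjusted p under 0.05, 2 were higher (Tiparp and Aldh3a1), and DESeq2 called none. In 6694c2 cells, IFNβ raised 3 (Ahr, Tiparp and Cyp1b1) and lowered 2 (Nqo1 and Aldh3a1), where 18.2% of all genes were called. IFNγ raised Cyp1b1 and lowered Ahrr, Nqo1 and Aldh3a1, where 13.5% of all genes were called. With STING agonist 0.36% of all genes were called in 6694c2 cells, and 3 members lay above every vehicle library, which is how the list came about, so nothing is read from that count (7.51% of all genes lay above every vehicle library). The comparisons of a line share its vehicle libraries.

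**Figure D3:**
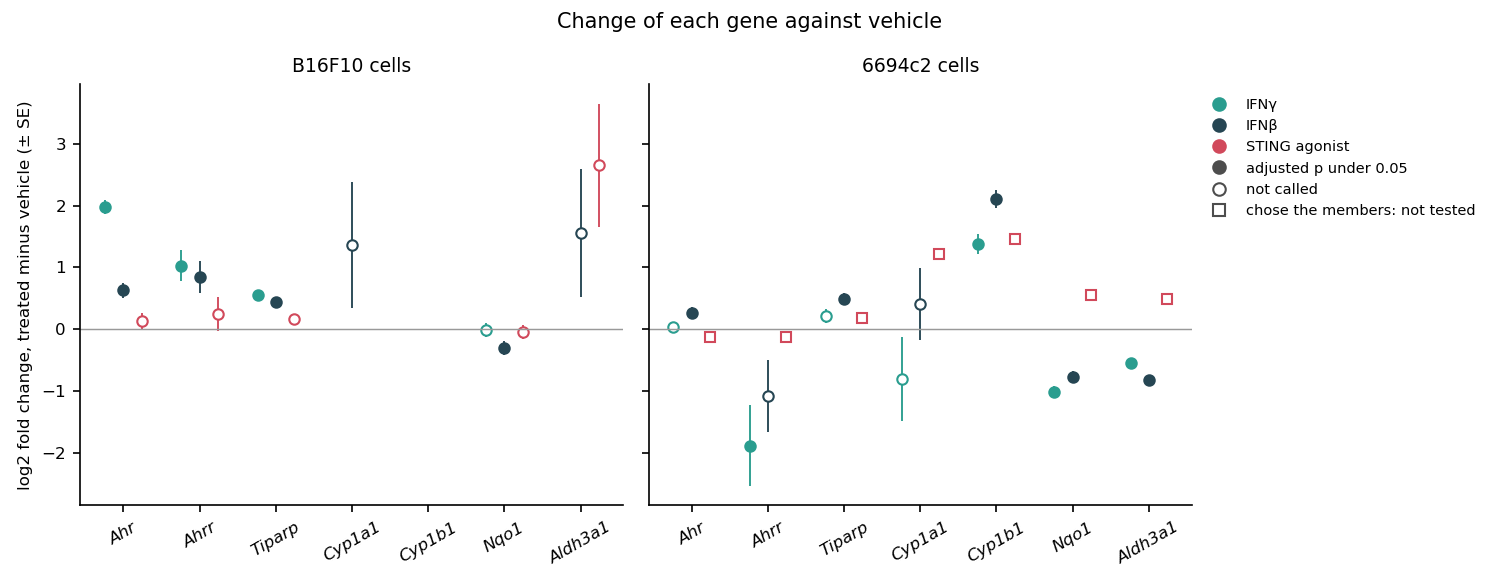
Log2 fold change against vehicle with its standard error (vertical axis) for each gene in B16F10 (left) and 6694c2 cells (right), by treatment. Filled points passed an adjusted p of 0.05, open points did not, squares (no error bar) are the comparison that chose the genes, and points where both groups averaged at most 3 reads per library are left out. Cyp1b1 in 6694c2 cells lies above 0 with all 3 treatments, at 2.10, 1.37 and 1.46, whereas Nqo1 and Aldh3a1 lie below 0 with the interferons and above it with STING agonist.

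Without treatment, the lines differed in all 7 genes, in a comparison where 58% of all genes were called. Ahr was higher in 6694c2 than in B16F10 cells by 2.37 on the log2 scale (SE 0.103, adjusted p = 5.5e-23) and Nqo1 by 1.34 (SE 0.1, adjusted p = 2.96e-15). Ahrr was lower by 1.30 (SE 0.372, adjusted p = 0.00247) and Tiparp by 1.02 (SE 0.0955, adjusted p = 2.22e-12). Aldh3a1 had 2984 reads in the 6694c2 vehicle libraries and 4 in those of B16F10 cells, a ratio of 892.0 with a 95% exact interval of 348.0 to 3280.0. For Cyp1b1 the reads were 187 and 5, a ratio of 44.7 (18.8 to 139.0), and for Cyp1a1 19 and 6, a ratio of 3.79 (1.45 to 11.6), all for counting error only. Both were called higher (adjusted p = 1.78e-15 and 0.0321), but the Cyp1a1 call was lost without B16F10 vehicle replicate 2 (adjusted p = 0.145), without 6694c2 vehicle replicate 1 (adjusted p = 0.0689) or 2 (adjusted p = 0.122) and with library totals in place of TMM (adjusted p = 0.0509). The receptor and its repressor stood in opposite order in the lines. Per kilobase, Aldh3a1 was the highest of the 7 in 6694c2 vehicle cells at 27.7 ± 2.97 RPKM, followed by Nqo1 at 17.3 ± 0.781, Ahr at 5.08 ± 0.807 and Tiparp at 4.49 ± 0.903, with Cyp1b1 at 0.657 ± 0.0849, Cyp1a1 at 0.121 ± 0.0542 and Ahrr at 0.0524 ± 0.0168 (SD, n = 3). In B16F10 vehicle cells Tiparp led at 10.5 ± 0.511 RPKM, followed by Nqo1 at 7.92 ± 0.297 and Ahr at 1.14 ± 0.00323, and the other 4 were at or below 0.149. The interferon effects on the 7 genes were called different between the lines for 3 genes with IFNβ (Ahrr, Nqo1 and Aldh3a1) and for 3 with IFNγ (Ahr, Ahrr and Nqo1), all lower in 6694c2 cells, where 12.1% and 9.47% of all genes were called. Cyp1b1, which rose with both interferons in 6694c2 cells, could not be compared at 0 to 5 reads per B16F10 library.

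Over the 12 libraries of 6694c2 cells, the levels of Nqo1 and Aldh3a1 were alike in pattern and that of Cyp1b1 was not. These libraries include the vehicle and STING agonist libraries on which the genes were selected, so part of the likeness of Nqo1 and Aldh3a1 is set by that choice. The Pearson correlation of log2(CPM + 0.5) was 0.939 between Nqo1 and Aldh3a1, and Aldh3a1 ranked 38 among the 11527 genes with a mean of at least 1 CPM in likeness to Nqo1. Cyp1b1 had a correlation of -0.339 with Nqo1 and -0.428 with Aldh3a1, and of 0.798 with Tiparp. The genes most like Aldh3a1 were Gsta3 (0.995), Sult1c2 (0.977), Pfkm (0.972), Eps8l3 (0.971) and Gstm1 (0.968). Gsta3 and Gstm1 are glutathione S-transferases, which join glutathione to reactive compounds, and Sult1c2 is a sulfotransferase. Gsta3 had a mean of 14.2 CPM with vehicle, 19.9 with STING agonist, 7.67 with IFNβ and 9.64 with IFNγ. The genes most like Nqo1 were Padi2 (0.981), Cbr3 (0.971), Pklr (0.969), Plpp5 (0.965) and Eps8l3 (0.965). Those most like Cyp1b1 were Mta2 (0.955), Wdr62 (0.93), Cfap43 (0.912), Por (0.908) and Hdac5 (0.908). Por, the reductase that passes electrons to microsomal P450 enzymes, went from 118.1 CPM with vehicle to 135.5 with STING agonist, 144.1 with IFNγ and 159.5 with IFNβ. The 12 points of each correlation share 4 treatments and the same libraries, so these values describe a pattern over treatments and carry no test.

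The genes of the receptor complex and of related programmes were counted from fixed lists. Of the 8 genes of the AHR complex (such as Arnt, Hsp90aa1, Src and Xpo1), none was called in 6694c2 cells by edgeR with any of the 3 treatments. Over all genes, 18.2% were called there with IFNβ, 13.5% with IFNγ and 0.36% with STING agonist. At an unadjusted p under 0.05, 1 of the 8 was higher with IFNβ, 1 higher and 1 lower with IFNγ and 1 lower with STING agonist. DESeq2 called none of the 8. In B16F10 cells 1 was higher and 2 lower with each interferon. Of all genes, 12.7% were higher and 11.2% lower there with IFNβ, and 12% and 10.8% with IFNγ. The gene of the list that rose was Arnt, the dimerization partner (log2 fold change 0.20 with IFNβ, adjusted p = 0.022, and 0.27 with IFNγ, adjusted p = 0.000891). Hsp90aa1, an HSP90 chaperone, fell by 0.19 with IFNβ (adjusted p = 0.000694) and by 0.17 with IFNγ (adjusted p = 0.00349). With STING agonist none of the 8 was called in B16F10 cells by edgeR or DESeq2, where edgeR called 3.46% of all genes. At an unadjusted p under 0.05, 1 of the 8 was lower.

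Of 22 NRF2 target genes, interferons lowered more than they raised in both lines. In 6694c2 cells IFNβ lowered 13 and raised 2, with a median log2 fold change of -0.20 against 0.0 over all genes, in a comparison that called 7.86% of all genes lower and 10.4% higher. IFNγ lowered 11 and raised 2, with a median of -0.22, where 5.66% of all genes were lower and 7.89% higher. In B16F10 cells, IFNβ lowered 11 and raised 3 (median -0.22), where 11.2% of all genes were lower and 12.7% higher. IFNγ lowered 9 and raised 4 (median -0.13), where 10.8% were lower and 12% higher. With STING agonist, 1 of 22 was called higher in 6694c2 cells and none lower, beside 0.203% of all genes higher and 0.156% lower. Of the 22, 18 had a log2 fold change above 0, a share that was not counted over all genes, so nothing is read from it. The median of the list was 0.10, against 0.0 over all genes. Without adjustment 6 were higher and none lower at p under 0.05, and DESeq2 called the same number as edgeR, 1 higher. In B16F10 cells STING agonist lowered 2 and raised none, beside 1.53% of all genes lower and 1.93% higher. Of the list, 2 were higher and 4 lower without adjustment, and DESeq2 called 2 lower. Cbr3, a carbonyl reductase, was the gene called with STING agonist in 6694c2 cells, at 23.5 ± 0.825 CPM against 16.9 ± 1.12 with vehicle (SD, n = 3, log2 fold change 0.47). This comparison also chose the AHR members, and the lists were drawn up with earlier results known. The calls of list genes in it are therefore a description. Cbr3 fell by 1.42 with IFNβ and by 1.39 with IFNγ (adjusted p = 2.79e-14 and 1.11e-13). Fth1, the ferritin heavy chain, fell in both lines with both interferons, by between 0.22 and 0.74 on the log2 scale. Hmox1, heme oxygenase 1, rose with IFNβ in both lines, by 0.94 in 6694c2 (adjusted p = 5.39e-09) and 0.38 in B16F10 cells (adjusted p = 1.57e-07). Osgin1, an oxidative stress-induced growth inhibitor, rose with IFNγ by 0.89 in 6694c2 and 0.48 in B16F10 cells and fell by 0.68 with IFNβ in B16F10 cells. Without treatment, 14 of the 22 were higher and 8 lower in 6694c2 than in B16F10 cells, beside 28.7% of all genes higher and 29.3% lower.

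A further list held 16 genes of the AHR battery, of which 13 passed the filter. Slc7a5 is also in the list of the tryptophan route given below, so its calls count in both lists. In 6694c2 cells IFNβ raised 6 and lowered 3 (median log2 fold change 0.23), beside 10.4% of all genes higher and 7.86% lower. IFNγ raised 2 and lowered 5 (median -0.21), beside 7.89% higher and 5.66% lower. With STING agonist 1 was higher and none lower (median 0.13), also without adjustment and by DESeq2, beside 0.203% of all genes higher and 0.156% lower. The gene higher with STING agonist was Cyp2s1, an AHR-inducible P450, at 134.3 ± 3.04 CPM against 108.7 ± 1.52 with vehicle (SD, n = 3, log2 fold change 0.30). As for Cbr3, this call is a description. Cyp2s1 also rose with IFNβ, by 0.23 (adjusted p = 0.00988). Tgm2, a transglutaminase, rose by 2.09 with IFNγ (adjusted p = 1.37e-26) and fell by 0.20 with IFNβ (adjusted p = 0.0443) in 6694c2 cells, and in B16F10 cells it rose with all 3 treatments. Serpinb2, a protease inhibitor, rose by 0.90 with IFNβ and fell by 1.18 with IFNγ in 6694c2 cells. In B16F10 cells 3 genes of the list were higher and 1 lower with STING agonist (2 higher and 1 lower by DESeq2), beside 1.93% of all genes higher and 1.53% lower. The 3 were Cyp2s1, Ugt1a7c and Tgm2. For Cyp2s1 the B16F10 libraries held 0.965 to 1.45 CPM by total reads, against 1.15 to 1.43 from the share of 6694c2 transcripts alone, and for Ugt1a7c 1.12 to 1.99 against 1.18 to 1.47. For Tgm2 they held 8.22 to 9.78 against 0.855 to 1.07. What the other line's transcripts contribute to the Cyp2s1 and Ugt1a7c calls was not tested.

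**Figure D4:**
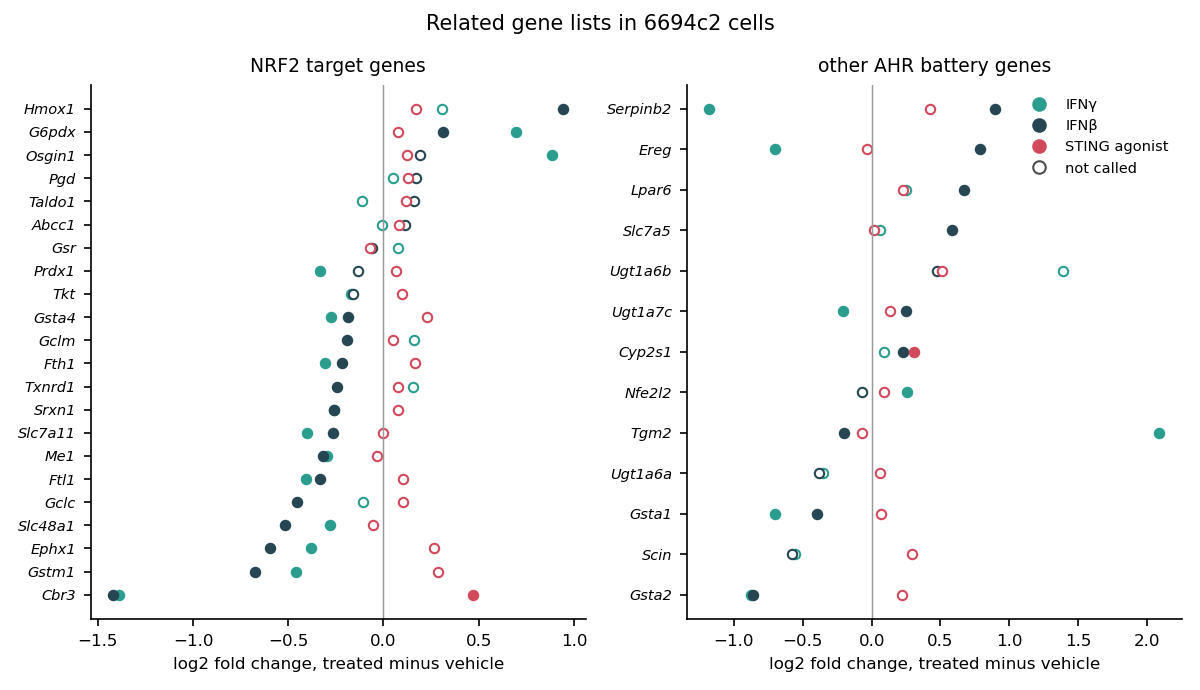
Log2 fold change against vehicle (horizontal axis) of each gene of the NRF2 target and other AHR battery lists in 6694c2 cells (vertical axis, genes in the order of their IFNβ change), with colors for the treatments. Filled points passed an adjusted p of 0.05 and open points did not. Of the 22 NRF2 target genes, 13 passed on the left of 0 with IFNβ and 11 with IFNγ, and Cbr3 is the only one that passed with STING agonist, on the right. Over all genes, 7.86% passed on the left with IFNβ, 5.66% on the left with IFNγ and 0.203% on the right with STING agonist.

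Genes of the tryptophan route to AHR ligands were followed in a list of 13, 12 of which passed the filter. The list holds enzymes of the route and the carrier subunits Slc7a5 and Slc3a2. In 6694c2 cells, IFNβ raised 4 and lowered 1 (10.4% and 7.86% of all genes), and IFNγ raised 3 and lowered none (7.89% and 5.66% of all genes). The 4 raised by IFNβ were the enzymes Ido1 and Ido2 and both carrier subunits. Ido1, which opens the kynurenine route, had 0 reads in all 3 vehicle libraries of 6694c2 cells and a mean of 6.24 CPM with IFNγ (5.70 to 6.81). That mean is at least 36.8-fold higher when vehicle is set at a limit of 3 reads per library (0.169 CPM in the shallowest). Ido2 rose with IFNγ by 3.21 on the log2 scale (adjusted p = 1.45e-15), from 0.893 ± 0.219 to 8.34 ± 0.22 CPM (SD, n = 3), and with IFNβ by 0.92 (adjusted p = 0.00875). Kyat3, a kynurenine aminotransferase, rose by 0.57 with IFNγ, and the tryptophan carrier subunit Slc7a5 by 0.59 with IFNβ. With STING agonist none of the 12 was called in 6694c2 cells by edgeR or DESeq2, where edgeR called 0.36% of all genes. At an unadjusted p under 0.05, 1 of the 12 was higher and 1 lower. In B16F10 cells, Ido1 had at most 4 reads in any group, and of the list 1 gene was higher and 3 lower with IFNβ, 1 lower with IFNγ and 1 lower with STING agonist. Over all genes there, 12.7% were higher and 11.2% lower with IFNβ, 10.8% lower with IFNγ and 1.53% lower with STING agonist. In 6694c2 cells with IFNγ, Ido1 was present and Cyp1b1 higher than with vehicle, while Ahrr, Nqo1 and Aldh3a1 were lower in the same libraries. Ido1 averaged only 0.235 CPM with IFNβ (adjusted p = 0.00119, edgeR) and 0.0559 with STING agonist. Cyp1b1 libraries lay above vehicle with both of these treatments too. A link between Ido1 and the other genes was not tested.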

How the data were processed

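Gene-level read counts of polyA RNA were analysed for 24 libraries of 2 cell lines, in 8 groups of 3 that followed the labels. The authors trimmed reads with cutadapt 1.14, checked them with fastqc 0.11.9 and multiQC 1.5, aligned them with STAR 2.7.9a and deposited raw counts per gene from Rsubread. The genome build and the handling of strand and of multi-mapping reads for these counts are not given in the sources used here, and coordinates are those of the files (91.4% of the genes found in GENCODE M21, GRCm38, had the same start and end). Depth ranged from 15543131 to 32266795 reads on genes.

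Genes with fewer than 10 reads summed over all libraries were removed, which left 21138 of 49315. The 12 libraries of a line formed 1 fit, scaled by TMM and tested with edgeR 4.0.16 (glmQLFit and glmQLFTest, R 4.3.3), and contrasts between lines came from 1 fit of all 24. P-values were adjusted by the Benjamini-Hochberg method over all genes kept, and a gene was called at an adjusted p under 0.05. All adjusted p-values are two-sided and from this test unless DESeq2 (1.42.0) is named. The standard error is the absolute log2 fold change divided by the square root of F. No fold change is given where both groups averaged at most 3 reads per library. An exact permutation test of 3 libraries against 3 cannot go below p = 0.1 and was not used. Intervals on ratios of reads are exact binomial (Clopper-Pearson, scipy 1.17.1) at 95%. The share of the other line's transcripts in a library is the median, over genes with a mean of at least 50 CPM in the other line and under 2% of that in their own, of the level relative to the other line. The scripts were tested on simulated data.

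The members and lists were chosen with earlier results of these data known. All 7 members are named, with, for each list, up to 4 genes of the largest called change (and genes named beside a small count, after their values were seen) and the 5 genes most like Cyp1b1, Nqo1 and Aldh3a1. Replicate libraries differed by more than sampling noise (chi-square per degree of freedom of at least 2.99), so each counted as 1 sample. Alternatives were RLE size factors, library totals, DESeq2, other filters, the replicate number as a block, other sets of libraries in the fit, each library left out and, added after seeing the data, TMM over all 24 libraries and robust estimation of the spread. The 6 single-cell samples were not analysed here, and some genes and alleles are not reported here.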

Additional observations from a re-analysis of the deposited data

Results flagged for a closer look

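Interferon effects on 4 of the 7 genes differed between the lines in the test of the difference itself, with the change in 6694c2 cells the lower one each time. No difference is given for Cyp1b1 with either interferon, nor for Cyp1a1 and Aldh3a1 with IFNγ, because of their few reads in B16F10 cells. Over all genes, the difference was called for 9.47% with IFNγ and 12.1% with IFNβ. For IFNγ the difference (6694c2 minus B16F10, log2 scale, edgeR) was -1.965 for Ahr (adjusted p = 2.64e-14), -2.904 for Ahrr (adjusted p = 0.00117) and -1.02 for Nqo1 (adjusted p = 1.77e-06). For IFNβ it was -1.949 for Ahrr (adjusted p = 0.0155), -0.4879 for Nqo1 (adjusted p = 0.0188) and -2.385 for Aldh3a1 (adjusted p = 0.0346), the last against B16F10 libraries of 0 to 8 reads. For Aldh3a1 the B16F10 IFNβ libraries held 0 to 0.357 CPM, and the share of 6694c2 transcripts alone would give 0.117 to 0.3. Each of the 3 IFNβ differences was lost when 1 library was left out: 6694c2 vehicle replicate 1 or 3 for Ahrr (adjusted p = 0.0644 and 0.0519), B16F10 IFNβ replicate 2 for Nqo1 (adjusted p = 0.0823), and any 1 B16F10 vehicle library or B16F10 IFNβ replicate 1 or 3 for Aldh3a1 (adjusted p = 0.0536 to 0.359). The Ahr values with STING agonist lay above vehicle in all 3 B16F10 libraries, whereas in 6694c2 cells the log2 difference was -0.135 with overlap, and the difference between the lines was not tested.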

How the results depend on the processing

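Of 53 values of the 7 genes, 34 kept their direction and their side of the threshold under every alternative, and of 29 calls 21 were made under every alternative. The libraries whose omission ended the other 8 are named in the report. Of the other settings, the Ahr call with IFNβ in 6694c2 cells was ended by RLE size factors, library totals, DESeq2, filterByExpr, TMM over all 24 libraries, the fit of all 24 and that of only the groups compared (adjusted p = 0.0504 to 0.158). The Ahrr call with IFNγ in 6694c2 cells was ended by no filter (0.0519), the replicate block (0.0666) and only the groups compared (0.0784), the Nqo1 call with IFNβ in B16F10 cells by library totals (0.0739) and only the groups compared (0.0529), and the Cyp1a1 difference between untreated lines by library totals (0.0509). Of 854 recomputed values in all, 783 were the same, 39 lost the call, 11 gained it, 20 changed sign and 1 moved by more than the spread. The cause of these changes was not tested. All sign changes were in values that were not called. With library totals in place of TMM, the IFNγ effect on Ahr in 6694c2 cells became -0.00645 and the difference of the IFNβ effects on Tiparp -0.0518, and the median over all genes went from -0.00571 to -0.186 in the comparison of untreated lines. With 1 library left out, values ranged from -0.0421 to 0.168 for Ahr with IFNγ in 6694c2 cells, -0.206 to 0.00348 for Ahr and -0.482 to 0.11 for Ahrr with STING agonist in 6694c2 cells, -0.0365 to 0.536 for Ahrr and -0.153 to 0.0315 for Nqo1 with STING agonist in B16F10 cells, -0.15 to 0.0518 for Nqo1 with IFNγ in B16F10 cells, and -0.074 to 0.194 for the difference of the IFNβ effects on Tiparp.

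Over all genes, the STING agonist calls in B16F10 cells numbered 732, against 459 in the fit of all 24 libraries (where 1 of the 7 genes, Aldh3a1, was called instead of 0), 1285 with only the groups compared and 416 to 568 with 1 library left out (437 and 477 without vehicle replicate 1 or 2, 481 and 416 without STING agonist replicate 2 or 3). In 6694c2 cells they numbered 76, against 44 with the filterByExpr minimum, 160 with no filter, 134 with only the groups compared and 42 to 105 with 1 library left out (50 without vehicle replicate 3, 42 and 49 without STING agonist replicate 1 or 3). With the replicate number as a block, this count was 126, and the IFNγ calls among the 7 genes in 6694c2 cells were 3 in place of 4 (Ahrr, adjusted p = 0.0666), with no other call of the 7 changed. Deviations of same-numbered libraries correlated between -0.227 and 0.207, so the numbers were not taken to pair the samples. Depth limits Cyp1a1 in both lines, Cyp1b1 and Aldh3a1 in B16F10 cells and Ahrr in 6694c2 cells.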
